A study of Mus musculus with 20 samples.

Results

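MAP kinase phosphatases were examined in RNA-seq of murine bone marrow-derived dendritic cells (BMDCs) treated with the BET inhibitor iBET and stimulated with immune complexes (ICs). The genes were chosen by symbol from the 24421 genes listed, as 9 dual-specificity phosphatase genes, namely Dusp1, Dusp2, Dusp3, Dusp4, Dusp5, Dusp6, Dusp7, Dusp10 and Dusp16. All 9 were among the 12465 genes kept by the filter on low counts and tested. Bone marrow of 5 wild-type C57BL/6 mice (A to E) was grown for 8 days with GM-CSF at 40 ng/mL, a culture that gives a mixture of dendritic and macrophage-like cells. Cells of each mouse were split into 4 groups with 1 library per mouse in each, which received DMSO with Ova (DMSO Ova), DMSO with IC (DMSO IC), iBET with Ova (iBET Ova) or iBET with IC (iBET IC). Ova is ovalbumin alone, IC is ovalbumin bound by IgG, which cross-links Fcγ receptors, and iBET is I-BET151 at 3.3 μM. The exposure to Ova or IC lasted 4 hours. DMSO, the solvent, is listed at 5% for the DMSO groups, and no solvent content is listed for the iBET groups, so the labels leave the matching of the solvent unclear. The labels describe iBET and stimulus as given together, whereas the methods place iBET shortly before the stimulus. The labels say that cells were sorted into lysis buffer and name no gate. There was 1 culture per mouse and condition. The spread between the libraries of a group therefore holds differences between mice, cultures and library preparations, which cannot be told apart.

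MAP kinases (ERK, JNK and p38) are switched on when an upstream kinase phosphorylates a threonine and a tyrosine in their activation loop, and dual-specificity phosphatases switch them off by removing both phosphates. Dusp1, Dusp2, Dusp4 and Dusp5 encode nuclear enzymes that are usually induced by the signal they end, Dusp6 and Dusp7 encode cytoplasmic enzymes that prefer ERK, and Dusp10 and Dusp16 encode enzymes that prefer JNK and p38. Dusp3 encodes a small enzyme of the same fold that lacks the MAP kinase-binding domain of the others. In dendritic cells and macrophages some of these enzymes are known as brakes on cytokine production after Toll-like and Fc receptor signalling. This role is not taken to hold for every member. A rise or fall of a transcript is therefore not read as less or more cytokine production. BET proteins bind acetylated histones and promote transcription, and iBET displaces them from chromatin. The RNA data give transcript levels only, and phosphatase protein and MAP kinase phosphorylation were not measured in them.

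The libraries held 16447491 to 29245150 counts (median 21764663), of which the ribosomal RNA gene Rn45s took 2.69% to 8.61%. Levels are given as CPM, the count of a gene scaled to a fixed library total after TMM normalization. The labelled cell type was checked by its markers. The dendritic cell list (6 genes, Itgax, H2-Ab1, Cd74, Flt3, Zbtb46 and Ccr7) summed to 4279 to 8824 CPM over the 20 libraries, in which Flt3 was low, at 0.848 to 4.94 CPM with DMSO and 0.121 to 0.572 CPM with iBET. The macrophage list (6 genes, Csf1r and Adgre1 among them) summed to 1188 to 1774 CPM with DMSO and to 833 to 1322 CPM with iBET. Neutrophil markers (8 genes in the table, Elane at or near 0) summed to 12.5 to 53.9 CPM, basophil and mast cell markers (6 genes, Mcpt8 and Fcer1a at or near 0) to 10.6 to 22.2 CPM with DMSO and 4.55 to 11.1 CPM with iBET, and lymphoid markers (7 genes, none passing the filter) to at most 0.801 CPM. In bulk RNA, fewer cells of one type and less RNA per cell cannot be told apart. Mice A and B stood apart from mice C, D and E on the second principal component of all genes (14.9% of the variance), at -33.8 to -18.6 against 9.83 to 23.5, so values within each set of mice, the AB set and the CDE set, are given beside the pooled ones. In all 4 groups the summed CPM of the dendritic cell list was higher and that of the macrophage list lower in mice C, D and E than in mice A and B. The sums are carried mostly by abundant genes, Cd74 and Itgax in the first list and Csf1r in the second. Single markers were not compared between the sets of mice, so the sums do not show that each marker differed. The part of this difference between mice in the results was not tested.

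The enzymes share a catalytic signature in which a histidine and a cysteine are followed by a loop that ends in an arginine. The coding stretch of this signature is shown for all 9 genes because it is the sequence feature that joins them, read from GENCODE release M21 on GRCm38, 5′ to 3′ on the coding strand, with the codons of the histidine, the cysteine and the arginine in capitals. Each stretch is 24 bases long, lies within 1 coding exon and occurred once in the coding sequence.
Dusp1 (chr17:26506592-26506615, minus strand): CATTGCcaggccggcatctccCGG
Dusp2 (chr2:127337616-127337639, plus strand): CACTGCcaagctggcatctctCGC
Dusp4 (chr8:34818433-34818456, plus strand): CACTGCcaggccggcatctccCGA
Dusp5 (chr19:53540951-53540974, plus strand): CACTGCgaagctggggtttccCGG
Dusp6 (chr10:99266027-99266050, plus strand): CATTGCttggcaggtatcagcCGC
Dusp7 (chr9:106373674-106373697, plus strand): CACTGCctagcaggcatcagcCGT
Dusp10 (chr1:184074293-184074316, plus strand): CACTGCcaggccggcgtgtccCGA
Dusp16 (chr6:134720559-134720582, minus strand): CACTGCttagctgggatctctCGC
Dusp3 (chr11:101974902-101974925, minus strand): CATTGCcgcgagggctacagcCGC
Dusp4 shared 22 of 24 bases with Dusp1 and also with Dusp10. The ERK-directed pair Dusp6 and Dusp7 shared 19, whereas the JNK- and p38-directed pair Dusp10 and Dusp16 shared 15 and Dusp2 and Dusp16 shared 21. Shared bases thus did not follow the preferred MAP kinase in general. Dusp3 was the most distant, with 11 bases shared with Dusp5 and 16 with Dusp6 and Dusp7.

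Promoter sequence was found in RefSeq (GRCm38.p6) for 8 of the 9 genes, all but Dusp4. The 250 bases before 1 RefSeq start of each gene were searched on both strands for TGACGTCA (the cyclic AMP response element) and its first part TGACG. They were also searched for TGANTCA, which AP-1 binds, for the E-box CACGTG, for the GC box GGGCGG, for TATAAA and for the CArG box of serum response factor. A match is a description of letters only. For Dusp1, Dusp3, Dusp5 and Dusp10 the start used lies inside the GENCODE span of the gene. Stretches before other annotated starts were not searched, so the absence of a motif holds for the stretch searched and not for the gene. The promoters of Dusp1 and Dusp5 are shown because they alone among the 8 held the motifs rarest among the 32851 RefSeq promoters, and those of Dusp10 and Dusp16 because the transcripts of these genes moved in opposite directions with iBET. Bases that GENCODE places in an exon are left out, and capitals mark TGACG, TGACGTCA and the CArG box on either strand.
Dusp1 (chr17:26508520-26508722, minus strand): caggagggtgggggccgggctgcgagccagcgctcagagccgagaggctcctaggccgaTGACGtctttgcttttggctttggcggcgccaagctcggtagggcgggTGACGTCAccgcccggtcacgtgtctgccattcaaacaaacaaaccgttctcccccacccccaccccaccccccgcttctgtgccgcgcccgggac
Dusp5 (chr19:53528895-53529108, plus strand): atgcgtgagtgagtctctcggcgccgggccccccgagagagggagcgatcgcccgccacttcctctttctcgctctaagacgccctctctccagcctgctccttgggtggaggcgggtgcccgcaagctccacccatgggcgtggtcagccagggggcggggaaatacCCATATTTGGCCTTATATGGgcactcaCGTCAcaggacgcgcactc
Dusp10 (chr1:184034131-184034380, plus strand): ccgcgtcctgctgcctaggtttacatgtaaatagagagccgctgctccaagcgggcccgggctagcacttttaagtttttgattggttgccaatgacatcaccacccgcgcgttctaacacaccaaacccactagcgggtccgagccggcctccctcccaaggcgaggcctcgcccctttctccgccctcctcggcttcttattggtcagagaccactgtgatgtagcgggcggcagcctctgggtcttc
Dusp16 (chr6:134792629-134792878, minus strand): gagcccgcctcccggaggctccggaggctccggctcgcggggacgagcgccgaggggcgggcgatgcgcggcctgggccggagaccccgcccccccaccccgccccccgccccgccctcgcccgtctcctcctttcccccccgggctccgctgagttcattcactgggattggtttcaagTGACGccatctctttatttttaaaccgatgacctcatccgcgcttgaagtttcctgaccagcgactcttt
Dusp1 held 1 TGACGTCA, which 1.55% of the RefSeq promoters held, and 3 matches of TGACG (17.8%), of which 1 on each strand lies within TGACGTCA. Dusp5 held 2 adjoining CArG boxes (1.47%) and 1 TGACG, and Dusp16 held 1 TGACG. The E-box CACGTG (6.02%) stood once in Dusp1 and once in Dusp2, and GGGCGG (32.7%) stood 1 to 5 times in all of the 8 but Dusp6 and Dusp7, in which none of the motifs was found. No match of TGANTCA (6.75%) or TATAAA (12.4%) was found in the 8.

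Levels between genes were compared per kilobase of annotated exon. In the DMSO Ova group Dusp3 was highest, at 28.5 ± 3.04 CPM per kilobase (SD, n = 5), followed by Dusp1 at 21.2 ± 10.8. Next came Dusp6 at 13.1 ± 5.60, Dusp5 at 12.9 ± 4.56, Dusp7 at 6.05 ± 0.711 and Dusp16 at 4.89 ± 1.60. Dusp4 (0.691 ± 0.329), Dusp10 (0.641 ± 0.172) and Dusp2 (0.0993 ± 0.0619) were lowest. The libraries of neighbours in this order overlapped, except between Dusp5 and Dusp7, between Dusp16 and Dusp4 and between Dusp10 and Dusp2. In the iBET Ova group Dusp6 came first at 24.7 ± 7.97 CPM per kilobase, ahead of Dusp1 at 22.6 ± 7.88 and Dusp3 at 20.4 ± 1.93, and these 3 overlapped. Dusp10 stood above Dusp4 without overlap in both iBET groups, at 1.73 ± 0.190 against 0.508 ± 0.274 with Ova and at 2.18 ± 0.175 against 0.617 ± 0.270 with IC.

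**Figure D1:**
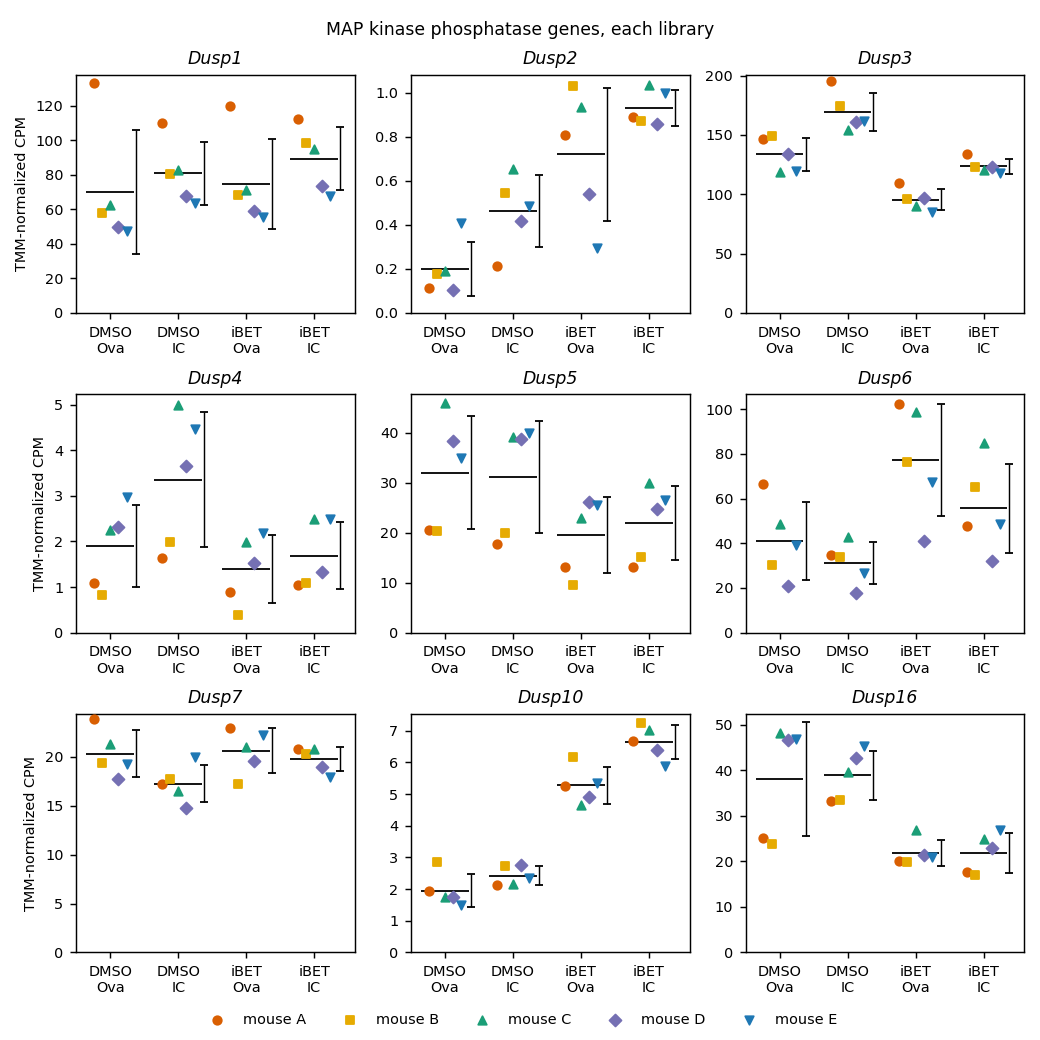
TMM-normalized CPM (vertical axes, linear, from 0) of each MAP kinase phosphatase gene in each of the 20 libraries, by group, with 1 symbol per mouse; black lines are means and bars are 1 SD over 5 mice. Dusp10 lay at 4.67 to 7.23 CPM in the iBET libraries and at 1.49 to 2.85 CPM in the DMSO libraries, and Dusp4 and Dusp5 were lower in mice A and B than in mice C, D and E in every group.

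iBET was compared with DMSO in cells given Ova and in cells given IC, to ask what the inhibitor does to these genes without and with Fcγ receptor cross-linking. With Ova, Dusp10, Dusp2 and Dusp6 passed as higher and Dusp3 and Dusp16 as lower, so that 3 genes were higher and 2 lower of 9 at an adjusted p under 0.05 (edgeR quasi-likelihood test, Benjamini-Hochberg), while 56.6% of all tested genes passed (27.7% higher and 28.9% lower). With IC the same 5 genes moved in the same directions and Dusp4 also fell, which made 3 higher and 3 lower, while 56.1% of all tested genes passed (27.1% higher and 29% lower). Dusp2 is in these counts although it met the filter on low counts only through the groups in which it was higher. Leaving it out, 2 were higher and 2 lower of 8 with Ova, and 2 were higher and 3 lower with IC. The members' counts were close to the background in both. The median log2 fold change of the 9 was 0.02 with Ova and 0.15 with IC, against -0.003 and -0.005 for all tested genes. With the mouse as a replicate block, 7 of 9 passed with Ova (3 higher, 4 lower) while 68.7% of all tested genes passed (33.5% higher and 35.2% lower), and 8 of 9 with IC (4 higher, 4 lower) while 68% passed (32.6% higher and 35.4% lower). Both comparisons rest on separate DMSO and iBET libraries of the same 5 mice.

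Dusp10, whose product prefers JNK and p38, lies at chr1:184013302-184075636 on the plus strand and showed the clearest rise. Its level in mice A to E was 1.93, 2.85, 1.74, 1.75 and 1.49 CPM with DMSO Ova and 5.25, 6.18, 4.67, 4.91 and 5.36 CPM with iBET Ova. With IC it was 2.12, 2.72, 2.15, 2.75 and 2.35 CPM with DMSO and 6.66, 7.23, 7.04, 6.39 and 5.90 CPM with iBET. Every iBET library lay above every DMSO library, whereas 18.5% of all tested genes with Ova and 21.1% with IC were higher without overlap. Its log2 fold change was 1.44 (SE 0.143, edgeR adjusted p = 5.21e-08) with Ova and 1.45 (SE 0.140, edgeR adjusted p = 3.29e-08) with IC, a 2.72- and a 2.74-fold rise seen in 5 of 5 mice each. The AB set gave 1.28 and 1.53, and the CDE set gave 1.62 and 1.44. The gene overlaps 1700056E22Rik on the other strand over 1272 bases, and whether the counting used strand is not stated in the sources used here.

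Dusp16, the other gene for a JNK- and p38-directed enzyme (chr6:134715468-134792625, minus strand), moved the opposite way. With Ova it stood at 25.1, 23.8, 48.1, 46.6 and 46.9 CPM in DMSO libraries of mice A to E and at 20.2, 19.9, 26.8, 21.5 and 20.8 CPM in iBET libraries. With IC it stood at 33.3, 33.4, 39.5, 42.6 and 45.3 CPM with DMSO and at 17.6, 17.0, 24.9, 22.99 and 26.8 CPM with iBET. All 5 mice were lower with iBET under both stimuli, and the groups overlapped with Ova but not with IC, where 21.6% of all tested genes were lower without overlap. With iBET it fell, with a log2 fold change of -0.80 (SE 0.190, edgeR adjusted p = 0.00124) with Ova and -0.83 (SE 0.190, edgeR adjusted p = 0.000927) with IC. With Ova it came to -0.29 in the AB set (edgeR adjusted p = 0.0352) and to -0.99 in the CDE set (edgeR adjusted p = 1.39e-06), and with IC to -0.93 and -0.75. The DMSO Ova libraries of mice A and B were at 23.8 and 25.1 CPM, apart from the 46.6 to 48.1 CPM of the other three.

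Dusp3 (chr11:101971143-101987013, minus strand) had the smallest change among the genes that passed. It stood at 146, 149, 119, 134 and 119 CPM with DMSO Ova and at 109, 95.9, 89.8, 96.7 and 85.2 CPM with iBET Ova in mice A to E. With IC it stood at 195, 174, 154, 161 and 162 CPM with DMSO and at 134, 123, 121, 123 and 118 CPM with iBET. The iBET libraries lay below all DMSO libraries of the same stimulus, as 19.5% of all tested genes did with Ova and 21.6% with IC. Its change was -0.49 on the log2 scale (SE 0.0815, edgeR adjusted p = 4.28e-05) with Ova and -0.45 (SE 0.0813, edgeR adjusted p = 8.91e-05) with IC, a 1.40- and a 1.37-fold fall in 5 of 5 mice each. In the AB set it was -0.53 and -0.50, and in the CDE set -0.41 and -0.38. Dusp3 overlaps the protein-coding gene Cfap97d1 on the other strand over 2735 bases, a symbol that is not among the genes listed.

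Dusp6, the main cytoplasmic ERK phosphatase gene and itself a target of ERK signalling, lies at chr10:99263231-99267489 on the plus strand. It stood at 66.7, 30.3, 48.5, 21.05 and 39.2 CPM with DMSO Ova and at 102, 76.4, 98.8, 41.2 and 67.5 CPM with iBET Ova in mice A to E. With IC it stood at 34.9, 33.7, 43.0, 17.6 and 26.8 CPM with DMSO and at 47.9, 65.0, 84.7, 32.0 and 48.6 CPM with iBET. Every mouse was higher with iBET, but the groups overlapped because mice differed widely, with mouse D lowest in each group. Dusp6 rose by 0.91 on the log2 scale (SE 0.310, edgeR adjusted p = 0.0174) with Ova and 0.84 (SE 0.312, edgeR adjusted p = 0.0283) with IC. In cells given Ova the AB set gave 0.87 (edgeR adjusted p = 0.0462) and the CDE set 0.98 (0.0535), and in cells given IC they gave 0.74 (0.0871) and 0.95 (0.0660), so of these only the AB set with Ova passed. The call with Ova was lost without mouse B (edgeR adjusted p = 0.0690) or mouse E (0.0532), and that with IC without mouse B (0.0802), C (0.0670) or E (0.0860), where the log2 fold change stayed between 0.79 and 0.94. Dusp7, which encodes a close relative of the Dusp6 product (chr9:106368632-106375724, plus strand), stood between 17.2 and 23.9 CPM in the Ova libraries and between 14.8 and 20.8 CPM in the IC libraries. Its change with iBET was 0.02 on the log2 scale in Ova (95% interval -0.18 to 0.22, edgeR adjusted p = 0.863) and 0.20 in IC (0.0006 to 0.39, edgeR adjusted p = 0.0817), and with the mouse as a block the latter passed (adjusted p = 0.0323), as it did without mouse E (0.0286).

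Among the nuclear enzymes, Dusp2 (chr2:127336159-127338376, plus strand), whose product is best known from haematopoietic cells, was the rarest, with 3 to 24 counts per library. No DMSO Ova library, 3 DMSO IC, 4 iBET Ova and 5 iBET IC libraries reached the CPM that the filter asks for, so it entered the test through the groups in which it was higher. Its p-values are conditional on that and are given as a description. It did not meet the filter when the 10 Ova libraries or the 10 DMSO libraries were fitted alone. The counts in mice A to E were 3, 3, 4, 3 and 8 with DMSO Ova and 20, 19, 16, 12 and 7 with iBET Ova. With IC they were 4, 12, 14, 10 and 12 with DMSO and 24, 23, 20, 18 and 18 with iBET. With Ova 4 of 5 mice were higher with iBET and the groups overlapped, and with IC all 5 were higher. In CPM the IC groups lay at 0.212 to 0.653 and at 0.858 to 1.03 and did not overlap, as for 21.1% of all tested genes in the higher direction. The log2 fold change was 1.87 (SE 0.383, edgeR adjusted p = 0.000343) with Ova and 0.98 (SE 0.326, edgeR adjusted p = 0.0147) with IC, and with no filter on low counts the adjusted p was 0.000382 and 0.0191. The AB set gave 2.66 and 1.19, and the CDE set 1.38 and 0.92. The call with IC was lost in the AB set (edgeR adjusted p = 0.0634), in the CDE set (0.0673) and without mouse A (0.0562).

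Dusp4 (chr8:34807297-34819894, plus strand) and Dusp5 (chr19:53529109-53542431, plus strand), the latter encoding a phosphatase selective for ERK, were lower with iBET in each of the 5 mice under both stimuli. Dusp4 stood at 1.09, 0.830, 2.26, 2.31 and 2.98 CPM with DMSO Ova and at 0.889, 0.380, 1.98, 1.53 and 2.18 CPM with iBET Ova. With IC it stood at 1.64, 2.00, 4.99, 3.66 and 4.47 CPM with DMSO and at 1.04, 1.10, 2.48, 1.34 and 2.503 CPM with iBET. The groups overlapped under both stimuli, since mice A and B lay below the others. The log2 fold change of Dusp4 was -1.01 with IC (SE 0.420, edgeR adjusted p = 0.0463), and with Ova it was -0.45 and did not pass (95% interval -1.36 to 0.47, edgeR adjusted p = 0.402). With the mouse as a block in edgeR both passed, with an adjusted p of 2.76e-05 with IC and 0.0293 with Ova, whereas in the Wald test of DESeq2 with the same block the difference with Ova did not (adjusted p = 0.0554). Without the block the call with IC was lost on leaving out mouse A (edgeR adjusted p = 0.0523), C (0.106), D (0.163) or E (0.0718), and the log2 fold change with IC was -0.75 in the AB set (edgeR adjusted p = 0.121) and -1.03 in the CDE set (0.00192).

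Dusp5 stood at 20.4, 20.4, 45.8, 38.3 and 34.9 CPM with DMSO Ova and at 13.2, 9.54, 22.98, 26.2 and 25.5 CPM with iBET Ova in mice A to E. With IC it stood at 17.7, 19.9, 39.2, 38.7 and 39.8 CPM with DMSO and at 13.2, 15.2, 29.9, 24.7 and 26.6 CPM with iBET. Mice A and B lay below mice C, D and E in each group, and the DMSO and iBET groups overlapped for that reason. The log2 fold change was -0.72 with Ova (95% interval -1.39 to -0.04, edgeR adjusted p = 0.0652) and -0.51 with IC (-1.18 to 0.16, edgeR adjusted p = 0.183), neither of which passed. With the mouse as a block both passed, at an adjusted p of 6.68e-07 and 5.84e-05. The AB set alone gave -0.84 (edgeR adjusted p = 0.00274) with Ova and -0.39 (0.0733) with IC, and the CDE set alone gave -0.62 (0.000125) and -0.51 (0.000647).

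Dusp1 (chr17:26505590-26562128, minus strand), the best studied of the family and a known brake on p38-driven cytokine transcripts, did not pass with iBET under either stimulus. It ranged from 47.3 to 133 CPM with DMSO Ova, from 55.7 to 120 CPM with iBET Ova, from 63.8 to 110 CPM with DMSO IC and from 67.7 to 113 CPM with iBET IC. Mouse A was the highest in each group. The log2 fold change was 0.10 with Ova (95% interval -0.45 to 0.64, edgeR adjusted p = 0.777) and 0.15 with IC (-0.40 to 0.69, edgeR adjusted p = 0.656). With the mouse as a block the intervals narrowed to -0.07 to 0.35 and -0.06 to 0.36 and neither passed. The gene overlaps Ergic1 on the other strand over 640 bases.

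**Figure D2:**
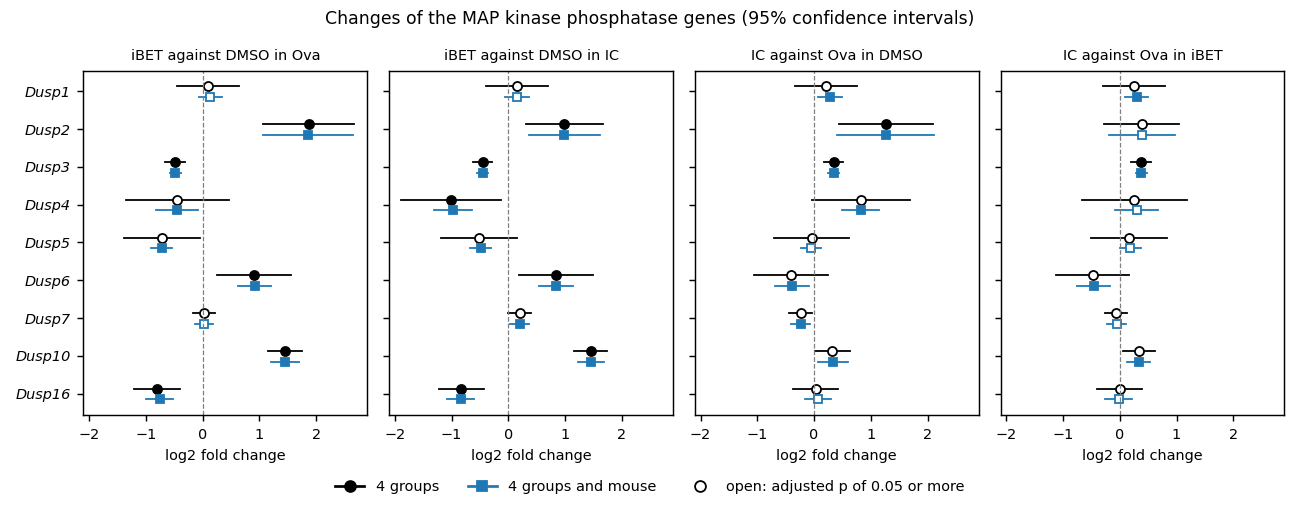
Log2 fold change (horizontal axes) of each gene in 4 comparisons, as points with 95% confidence intervals, from the edgeR fit with the 4 groups alone (black circles) and with the mouse added as a block (blue squares); filled points have an adjusted p under 0.05. Dusp10 lay at 1.44 and 1.45 in both iBET comparisons, and the intervals of Dusp4, Dusp5 and Dusp6 narrowed with the block.

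**Figure D3:**
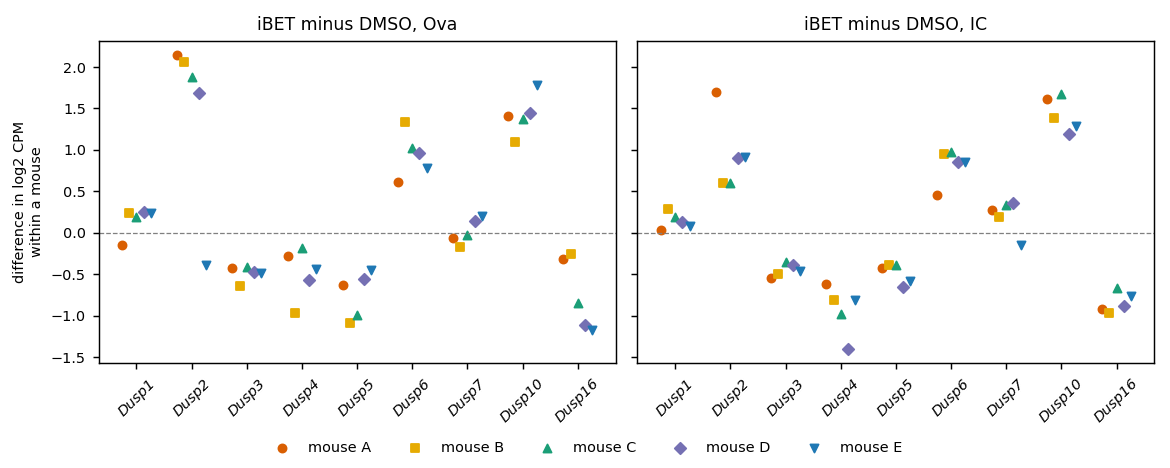
Difference in log2 CPM between the iBET and the DMSO library of the same mouse (vertical axis), for each gene with Ova (left) and with IC (right), with 1 symbol per mouse. All 5 mice lay above 0 for Dusp6 and Dusp10 and below 0 for Dusp3, Dusp4, Dusp5 and Dusp16 in both panels, and with Ova the Dusp16 differences of mice A and B (-0.31 and -0.26) were smaller than those of mice C, D and E (-0.84 to -1.17).

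IC was compared with Ova to ask what Fcγ receptor cross-linking does to these genes in cells with DMSO and with iBET. With DMSO, Dusp3 and Dusp2 passed as higher and none as lower at an adjusted p under 0.05 (edgeR), 2 of 9 genes, while 20.3% of all tested genes passed (9.59% higher and 10.7% lower). Dusp2 reached the CPM of the filter in 3 of these 10 libraries and in 9 of the 10 iBET libraries, and in a fit of the 10 DMSO libraries alone it was not tested and Dusp3 alone passed. When libraries were scaled by their size only, the calls over all genes with DMSO became 582 higher and 2593 lower, against 1196 and 1335 with TMM, and with iBET they became 313 and 2030 against 647 and 827. With iBET only Dusp3 of the 9 passed, higher with IC, while 11.8% of all tested genes passed (5.19% higher and 6.63% lower). With the mouse as a block, 7 of 9 passed with DMSO (5 higher, 2 lower), while 38.1% of all tested genes passed (18.3% higher and 19.8% lower). With iBET 4 of 9 then passed (3 higher, 1 lower), while 28.9% of all tested genes did (14.2% higher and 14.7% lower). These comparisons share their libraries with the iBET comparisons.

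Dusp3 was higher with IC in every mouse, from 119 to 149 CPM up to 154 to 195 CPM with DMSO and from 85.2 to 109 CPM up to 118 to 134 CPM with iBET, without overlap. Of all tested genes, 5.97% with DMSO and 4.57% with iBET were higher without overlap. The log2 fold change was 0.34 (SE 0.0812, edgeR adjusted p = 0.00583) with DMSO and 0.37 (SE 0.0815, edgeR adjusted p = 0.00534) with iBET. The AB set gave 0.31 and 0.34, which did not pass with 2 mice (edgeR adjusted p = 0.127 and 0.112), and the CDE set gave 0.38 and 0.41. The mean Dusp3 level with iBET IC, 123.6 ± 6.23 CPM, lay below the 133.5 ± 14.3 CPM of DMSO Ova (n = 5 each), a pair that was not tested.

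Dusp2 had 3 to 8 counts per library with DMSO Ova and 4 to 14 with DMSO IC, and was higher with IC in 5 of 5 mice. The groups overlapped. The log2 difference was 1.27 (SE 0.398, edgeR adjusted p = 0.0298), a p that is conditional on the filter as above. With no filter it was 0.0425, and it did not pass without mouse B (edgeR adjusted p = 0.0944), C (0.156) or D (0.134), in the AB set (0.259) or in the CDE set (0.0904). With iBET the log2 difference between IC and Ova was 0.38 (95% interval -0.27 to 1.04, edgeR adjusted p = 0.489).

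The other 7 did not pass in either comparison without the block. Dusp4 was higher with IC in DMSO in 5 of 5 mice, with a log2 difference of 0.82 (95% interval -0.04 to 1.69, edgeR adjusted p = 0.174), which passed with the mouse as a block (adjusted p = 0.000486). With iBET its difference was 0.25 (95% interval -0.67 to 1.18, edgeR adjusted p = 0.779) and did not pass with the block either (0.230). Dusp10 differed by 0.32 with DMSO (edgeR adjusted p = 0.130, with the block 0.0442, but 0.0919 in DESeq2 with the block) and by 0.33 with iBET (0.111, with the block 0.0172), where 5 of 5 mice were higher. Without mouse B the Dusp10 difference with DMSO passed, at 0.44 (edgeR adjusted p = 0.0268).

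Dusp6 was lower with IC in most mice, with a log2 difference of -0.40 with DMSO in 4 of 5 (edgeR adjusted p = 0.402, with the block 0.0400) and of -0.47 with iBET in 5 of 5 (0.358, with the block 0.0168). Dusp7 differed by -0.24 with DMSO (95% interval -0.43 to -0.04, edgeR adjusted p = 0.0814, with the block 0.0255) and by -0.06 with iBET (-0.26 to 0.14, edgeR adjusted p = 0.746). Dusp1 differed by 0.21 with DMSO (edgeR adjusted p = 0.639, with the block 0.0339) and by 0.26 with iBET (0.598, with the block 0.0333). Mouse A alone was lower with IC, and without it the Dusp1 difference with DMSO was 0.44 and passed (edgeR adjusted p = 0.0306), while that with iBET was 0.40 (0.0813). Dusp5 differed by -0.04 (95% interval -0.70 to 0.62) and 0.16 (-0.51 to 0.84), and Dusp16 by 0.03 (-0.36 to 0.42) and -0.001 (-0.40 to 0.40). For Dusp16 with DMSO, the AB set gave 0.44 (edgeR adjusted p = 0.0390) and the CDE set -0.13 (0.312).

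The interaction asks whether the effect of iBET differed between IC and Ova. None of the 9 genes passed at an adjusted p under 0.05 in edgeR, none had an unadjusted p under 0.05 in that fit, and none passed with the mouse as a block or in the Wald test of DESeq2. Of all tested genes 0.0401% (5 genes) passed, 4.36% had an unadjusted p under 0.05 and 0.818% (102 genes) passed with the block. The difference was largest for Dusp2, at -0.88 (95% interval -1.94 to 0.17), and for Dusp4, at -0.57 (-1.83 to 0.70). With the mouse as a block the Dusp4 difference was -0.52 with a narrower interval that lay below 0 (-1.02 to -0.01), and did not pass after adjustment (adjusted p = 0.429), while that of Dusp2 stayed wide, at -0.87 (-1.91 to 0.16). It was narrowest for Dusp3, at 0.03 (-0.21 to 0.27), and for Dusp10 it was 0.01 (-0.43 to 0.45).

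Some of these genes also differed between the mice. Dusp5 was 1.91 to 2.19 times, Dusp4 1.97 to 2.99 times and Dusp16 1.15 to 1.93 times as high in the mean of mice C, D and E as in that of mice A and B over the 4 groups. The sets of mice were drawn from a principal component of all genes in these same data. The share of all tested genes that differ likewise between the sets was not counted, so the difference is not shown to be particular to these genes. Dusp3 was 0.840 to 0.936 times as high in mice C, D and E. The dendritic cell marker sums lay at 4279 to 4628 CPM in mice A and B and at 5655 to 6667 CPM in mice C, D and E in the DMSO Ova group, the macrophage sums at 1624 to 1774 and 1188 to 1423 CPM and the neutrophil sums at 17.4 to 17.9 and 21.6 to 53.9 CPM. The part of these cell type markers in the differences between mice was not tested. Over the 20 libraries the log2 CPM of Dusp4 and Dusp5 had a Pearson r of 0.87, and of 0.93 after the group means were removed. Dusp10 and Dusp16 had an r of -0.84 over libraries and of -0.64 within groups. These are descriptions, as the libraries share mice and groups.

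The genes most like each member in log2 CPM over the 20 libraries, by Pearson r, were named by the same rule for all 9. For Dusp5 these were Irf8, a transcription factor of dendritic cell development (r = 0.98), and Bmyc (0.98). For Dusp4 they were Basp1 (0.94) and E2f4 (0.94), and for Dusp3 Tnfrsf1b, a TNF receptor gene (0.98), and Fam63a (0.97). Dusp10 was followed by Pcnxl4 (0.97) and Atg4b (0.97), Dusp16 by Atxn7l1 (0.96) and Etv6 (0.96), and Dusp2 by Suco (0.92) and Larp4 (0.91). Dusp6 had Psph (0.90) and Id1 (0.90), Dusp1 Wfdc21 (0.90) and Hsd17b12 (0.88), and Dusp7, with the weakest likeness, Slc37a4 (0.78) and Mum1 (0.77).

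The rest of the MAP kinase pathway was described by lists of genes and their counts with iBET, which are read against 56.6% of all tested genes with Ova and 56.1% with IC. The MAP kinases themselves, the substrates of the phosphatases, were 12 genes, of which 8 were tested, and 5 rose and 2 fell with iBET under both stimuli. Mapk8 and Mapk9, which encode JNK enzymes, rose by 1.00 and 0.57 with Ova and by 0.89 and 0.52 with IC on the log2 scale (edgeR adjusted p from 1.80e-09 to 2.26e-07). Mapk6, for an atypical MAP kinase, rose by 0.66 in Ova (edgeR adjusted p = 7.89e-07) and 0.29 in IC (0.00463), and Mapk7, for the ERK family member that MAP2K5 activates, moved by -0.55 (5.84e-06) and -0.53 (1.03e-05).

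All 7 MAP kinase kinase genes passed with iBET. With Ova 5 were higher and 2 lower, and IC gave 6 and 1. Map2k3, for a p38 activator, rose by 0.74 with Ova and with IC (edgeR adjusted p = 8.48e-06 and 8.63e-06), Map2k1, for an ERK activator, rose by 0.60 (9.63e-09) and 0.53 (5.41e-08), and Map2k5 had a log2 fold change of -0.57 with both (1.86e-06 and 1.90e-06). Map2k6, for the other p38 activator, was lower with iBET in Ova at -0.40 (edgeR adjusted p = 0.0379) and higher in IC at 1.01 (8.89e-05). Its counts per library were low, at 44 to 84 with DMSO Ova and 11 to 17 with DMSO IC. With iBET they were 31 to 55 in Ova and 24 to 34 in IC. With DMSO Map2k6 differed by -2.03 between IC and Ova (edgeR adjusted p = 2.24e-07), and its interaction of 1.41 passed (SE 0.377, edgeR adjusted p = 0.0316). That interaction was 1.42 in the AB set and 1.39 in the CDE set and did not pass in either (edgeR adjusted p = 0.438 and 0.193).

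Of 14 tested MAP kinase kinase kinase and RAF genes, 3 rose and 5 fell with Ova and 4 rose and 6 fell with IC. Braf, for a RAF kinase of the ERK pathway, came to log2 values of -0.81 (edgeR adjusted p = 1.45e-06) and -0.85 (7.53e-07), Map3k12 of -0.81 (0.000163) and -0.90 (6.95e-05), and Map3k8, for the kinase that links Toll-like receptors to ERK, of -0.76 (3.74e-07) and -0.36 (0.00119). Map3k2 rose by 0.51 (edgeR adjusted p = 0.000110) and 0.46 (0.000330).

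Of 10 kinases that MAP kinases activate, 6 rose and 3 fell with Ova and 4 rose and 3 fell with IC. Mknk2, for a kinase of the translation factor eIF4E, rose by 1.43 and 1.59 (edgeR adjusted p = 2.68e-09 and 6.50e-10), and Mapkapk3, for a p38-activated kinase, had log2 fold changes of -0.79 and -0.86 (2.71e-07 and 8.74e-08). Rps6ka5 rose by 0.46 (edgeR adjusted p = 0.00173) in Ova and 0.69 in IC (4.03e-05). Rps6ka2 rose by 0.68 in Ova (edgeR adjusted p = 5.22e-06) and was -0.20 in IC (0.0737), with an interaction of -0.89 (SE 0.135, edgeR adjusted p = 0.0289). Both this interaction and that of Map2k6 belong to the 5 genes that passed over all genes, a count that was 0 to 2 when any 1 mouse was left out.

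Other phosphatases were described in the same way. Of the 17 other dual-specificity phosphatase genes listed, 16 were in the table and 11 were tested, of which 1 rose and 5 fell with Ova and 1 rose and 4 fell with IC. Log2 fold changes were -1.80 (edgeR adjusted p = 6.12e-06) and -1.83 (2.57e-06) for Dusp18, and -0.43 (0.00417) and -0.56 (0.000468) for Styx, which encodes a catalytically inactive relative. Dusp28 rose by 0.61 (edgeR adjusted p = 0.000610) and 0.51 (0.00354). Dusp13 gave -0.62 (edgeR adjusted p = 0.181) and -1.72 (0.000403), but had only 2 to 33 counts per library. Its level was 0.980 to 1.75 CPM with DMSO IC and 0.111 to 0.944 CPM in the other groups. The group in which it was highest was enough for the filter on low counts, so its p-values are conditional on that and are given as a description. Dusp13 is 1 of the 4 other dual-specificity phosphatase genes counted as falling with IC. Of 6 tested phosphatases of other families that act on MAP kinases, 2 rose and 1 fell under both stimuli. Ptpn7, for a tyrosine phosphatase of haematopoietic cells that acts on ERK and p38, came to -1.65 (edgeR adjusted p = 5.37e-13) under Ova and to -1.72 (3.47e-13) under IC on the log2 scale, and Ppm1b rose by 0.59 (2.37e-08) and 0.50 (2.32e-07) and Ppm1d by 0.51 (4.38e-05) and 0.61 (6.06e-06). Of 5 tested Sprouty and Spred genes, which restrain the RAS to ERK path, Spred3 alone passed, at -0.98 (edgeR adjusted p = 0.00235) and -0.66 (0.0298).

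**Figure D4:**
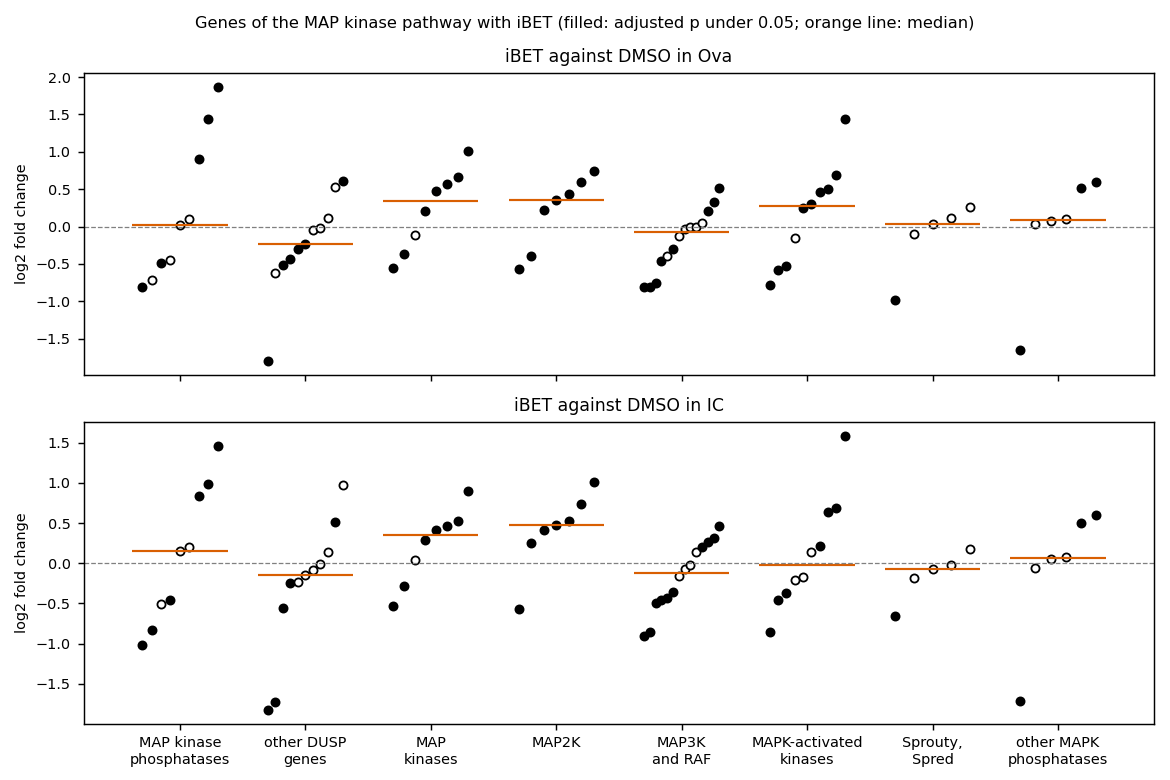
Log2 fold change with iBET against DMSO (vertical axes) of every tested gene of the MAP kinase phosphatases and of 7 lists of related genes, with Ova (top) and IC (bottom); each point is a gene, filled where the edgeR adjusted p is under 0.05, and orange lines are list medians. The MAP kinase kinases had a median of 0.36 with Ova and 0.47 with IC, while the medians of the phosphatases were 0.02 and 0.15.

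For IC against Ova the counts are read against 20.3% of all tested genes with DMSO and 11.8% with iBET. With DMSO, 2 of the 11 tested other dual-specificity phosphatases rose and 5 fell, 2 of the 10 activated kinases rose and 3 fell, and 1 of the 14 MAP kinase kinase kinases rose and 4 fell. Dusp13, whose p-values are conditional on the filter as above, is 1 of the 2 other dual-specificity phosphatases that rose. Of the 8 MAP kinase genes 1 rose and 1 fell, and of the 7 MAP kinase kinases 1 fell. With iBET, 2 of the 10 activated kinases rose and 2 fell, 1 of the 14 MAP kinase kinase kinases rose and 3 fell, 1 of the 8 MAP kinases rose and 1 fell, and 2 of the 11 other dual-specificity phosphatases and 1 of the 7 MAP kinase kinases fell. The 6 phosphatases of other families gave 1 higher and 1 lower in both comparisons, and none of the 5 Sprouty and Spred genes passed in either. Map3k8 was higher with IC under both, by 0.28 with DMSO (edgeR adjusted p = 0.0262) and 0.68 with iBET (4.11e-05), and Rps6ka2 by 1.80 (9.28e-10) and 0.92 (2.80e-06). Mapk6 rose by 0.64 with DMSO (edgeR adjusted p = 1.73e-05) and 0.27 with iBET (0.0323), and Ptpn7 had log2 differences of -0.43 (0.000260) and -0.50 (0.000161).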

How the data were processed

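Total RNA of 20 BMDC samples was sequenced by the authors. Per the labels and the submitters' processing notes, reads were trimmed with Trim Galore, aligned to mm10 with HISAT2 and counted with featureCounts. The authors deposited raw counts per gene and a second table of signal values, checked to be the same counts divided by 1 factor per library. The annotation and strand setting of the counting are not given in the sources used here. The study's methods name DESeq2 and sva and give no design.

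Samples were grouped by their labels. Low counts were removed with filterByExpr (minimum count 10) and libraries were scaled by TMM. All 20 libraries entered 1 quasi-likelihood fit (edgeR 4.0.16, R 4.3.3), which had a mean for each of the 4 groups and no other term, and p-values were adjusted by Benjamini-Hochberg over the 12465 tested genes at a threshold of 0.05. Log2 CPM used a prior count of 2. The labels name the mouse, so libraries are paired: the deviations of same-mouse libraries from their group means had a mean correlation of 0.524 (lowest 0.307 over 30 pairs). The alternatives added the mouse as a block (replicate block), or used DESeq2 1.42.0 and its Wald test (also with the block), its size factors, library size only, 3 surrogate variables (sva 3.50.0), no filter, the 10 libraries compared, limma 3.58.1 on the log2 of the deposited signal values plus 1, each mouse left out, each set of mice alone, and calls limited to log2 changes of 1 or more in size. The fits were tested on simulated data. Replicates differed by more than counting error (chi-square per degree of freedom at least 13.18), so errors are SDs over mice, and depth limits precision most for Dusp2. That value does not describe each gene, as the Dusp2 counts with iBET IC ran only from 18 to 24.

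The members and lists were chosen with earlier results of these data known. Named were all 9 members, in each list up to 4 genes with the largest change among those passing with iBET, and the 2 most alike genes per member. Positions and exon lengths are from GENCODE M21 and promoters from RefSeq.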

Additional observations from a re-analysis of the deposited data

Results flagged for a closer look

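In 4 of the 36 groups of 5 libraries (9 genes in 4 groups), 1 library lay far from the others, with a gap to its nearest neighbour above 0.71 of the group's range. Chance alone marks about 1 in 20 such groups. Dusp1 in mouse A stood at 133 CPM in the DMSO Ova group, where the other mice had 47.3 to 62.3 CPM, and at 120 CPM in the iBET Ova group, where the others had 55.7 to 71.2 CPM. Dusp2 in mouse E stood at 0.41 CPM with DMSO Ova, which is 8 counts, while the others had 0.105 to 0.188 CPM. Dusp16 in mouse C stood at 26.8 CPM with iBET Ova, while the others had 19.9 to 21.5 CPM.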

How the results depend on the processing

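Of 709 gene-level values under the alternatives, 603 kept their direction and their side of the threshold, 25 no longer passed, 42 newly passed and 39 changed sign. Every change of sign was in a value that had not passed in the 4-group fit, and the cause was not tested. With iBET against DMSO, the calls of Dusp3, Dusp10 and Dusp16 held under each alternative other than the limit on the size of change below. Of these genes only Dusp10 met that limit, at 1.44 with Ova and 1.45 with IC.

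The count of members that passed with iBET was 5 with Ova and 6 with IC. With calls limited to log2 changes of 1 or more in size it was 2 with Ova and 2 with IC, in mice A and B alone it was 3 with IC (1 higher, 2 lower), in mice C, D and E it was 5 with IC, split as 1 higher and 4 lower instead of 3 and 3, and leaving out each mouse gave 4 to 5 with both. For IC against Ova in DMSO the count of 2 became 7 with the replicate block, 6 in DESeq2 with the block, 4 with surrogate variables, 1 over the 10 libraries compared, 1 in mice A and B, 4 in mice C, D and E, 1 with that limit, and 1 (without mouse C or D) to 3 without 1 mouse. For IC against Ova in iBET the count of 1 became 4 with the replicate block, 2 in DESeq2, 4 in DESeq2 with the block, 2 with surrogate variables, 0 in mice A and B and 0 with that limit. The replicate block changed no call of a member from passing to not passing. With it, edgeR and DESeq2 differed for Dusp4 with iBET in Ova and for Dusp10 with IC in DMSO, which passed in edgeR alone.

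Changed signs for iBET in Ova were, for Dusp7, -0.0322 by library size only, -0.111 in mice A and B and -0.0262 to 0.0912 without 1 mouse, and for Dusp1 -0.0283 in mice A and B. For IC in DMSO they were, for Dusp16, -0.087 by library size only, -0.133 in mice C, D and E and -0.0426 to 0.131 without 1 mouse, for Dusp5 0.00191 in mice C, D and E and -0.114 to 0.0394 without 1 mouse, and for Dusp1 -0.0239 in mice A and B. For IC in iBET they were, for Dusp16, 0.00415 in DESeq2, 0.00301 with its size factors, 0.0255 with surrogate variables, 0.00261 without the filter, 0.00543 over 10 libraries, 0.112 in mice C, D and E and -0.101 to 0.045 without 1 mouse, for Dusp7 0.0363 in mice A and B and -0.132 to 1.18e-05 without 1 mouse, and for Dusp2 -0.0376 in mice A and B. For the interaction they were, for Dusp10, -0.00429 with the replicate block, -0.00227 in DESeq2 with the block, -0.0171 with surrogate variables, -0.189 in mice C, D and E and -0.0831 to 0.124 without 1 mouse, for Dusp16 0.245 in mice C, D and E and -0.151 to 0.0856 without 1 mouse, for Dusp1 -0.00521 in limma, -0.102 in mice C, D and E and -0.0436 to 0.0834 without 1 mouse, for Dusp3 -0.00279 to 0.0761 without 1 mouse and for Dusp6 0.21 with surrogate variables.

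Over all genes, the replicate block raised the calls for IC against Ova from 2531 to 4755 with DMSO and from 1474 to 3601 with iBET, and those of the interaction from 5 to 102. Library size only moved the median of all genes in IC against Ova from -0.02 to -0.13 with DMSO, where the calls became 582 higher and 2593 lower against 1196 and 1335, and from -0.01 to -0.12 with iBET, where they became 313 higher and 2030 lower against 647 and 827. With that limit the calls were 1865, 1867, 184, 101 and 3 in the order iBET in Ova, iBET in IC, IC in DMSO, IC in iBET and interaction. Without 1 mouse, calls fell to as few as 1180 (C) or 1418 (D) for IC in DMSO, and to 917 (B), 643 (C) or 714 (D) for IC in iBET. In mice A and B they were 500, 296 and 0 for IC in DMSO, IC in iBET and the interaction. Surrogate variables gave 4062, 3102 and 47, DESeq2 with the block 4552, 3555 and 186, DESeq2 alone 24 for the interaction, and mice C, D and E 13.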
